A study of Mus musculus with 12 samples.

Results

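The transcripts described here are those of 45 genes that build or serve the contractile apparatus of striated muscle, measured in liver. They comprise 7 myosin heavy chains, 4 myosin light chains, 4 thin filament proteins, 8 troponin subunits, 11 proteins of the Z-disc, M-band and filament surroundings, 7 proteins of calcium release and uptake, and 4 proteins of energy supply and oxygen storage. Members were chosen by gene symbol from a list, after the differences of such genes from the TFA diet were already known, and a gene value was the mean log2 intensity of the probe sets annotated to that symbol alone. All 45 were found among the 20422 genes so measured, through 998 of 212138 probe sets. The contrasts of each additive diet with TFA are therefore given as a description, and no test is read from them.

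The study compared 4 diets fed to male C57Bl/6J mice, whose livers were taken at 20 weeks after an overnight fast. All 4 groups, the controls included, ate a TFA diet with 20% (w/w) partially hydrogenated vegetable shortening and 8.68% (w/w) trans fatty acids, with exposure from in utero on. Dams received the same diet and drinking water as their offspring, from 3 weeks before mating through nursing, so that MSG and ASP exposure also began in utero, and offspring were weaned onto it at 4 weeks. The TFA group drank plain water, the MSG + TFA group water with 0.75 g/L monosodium glutamate (MSG, a flavour enhancer), the ASP + TFA group water with 0.25 g/L aspartame (ASP, a sweetener), and the ASP + MSG + TFA group water with both. Each diet had 15 mice, whose RNA was pooled from 5 mice per array, so that 3 pools stand for a diet and no mouse was measured alone. In RNA of whole tissue, fewer cells of a type and less RNA per cell cannot be told apart.

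In striated muscle, myosin heads of the thick filament pull on actin of the thin filament once calcium binds troponin C and the troponin complex shifts tropomyosin off the actin surface. Calcium is released from the sarcoplasmic reticulum by the ryanodine receptor and pumped back by SERCA. Fast-twitch, slow-twitch and heart muscle use different genes for the same subunit, so that a fast and a slow isoform can be set side by side. Hepatocytes have no sarcomere. Which cells gave the reading of a member, Eno3 among them, and whether these were liver cells or cells of other tissue in the samples, was not tested.

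Most members were dim on these arrays. The median member had a mean log2 intensity of 6.07 over the 12 arrays, against 6.77 for the median gene, and only Acta1, Neb, Tnnc1, Tnnt3, Ckm and Eno3 had a 12-array mean above the median probe set of every array (6.91 to 6.96). Acta1, Tnnt3, Ckm and Neb fell short of those medians in 1 or more pools of the additive diets. The 12 hepatocyte genes checked, led by albumin (Alb) and apolipoprotein A-I (Apoa1), averaged 12.99 to 13.21 over the pools, and 11 of the 12 had a mean above the array medians. The exception, argininosuccinate synthase (Ass1), read 4.33 to 5.09. Over all members the median difference from TFA was -0.27 log2 for MSG, -0.19 for ASP and -0.15 for both additives, against 0.0036, 0.022 and 0.0072 over all genes. Below the TFA mean lay 43 members for MSG, 38 for ASP and 33 for both additives, where 48.7%, 42.7% and 47.8% of all genes did.

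RefSeq promoters (GRCm38.p6) were found for 37 of the 45 members. Neb, Tnni2, Tnnt3, Actn3, Myoz1, Tcap, Myom2 and Trdn were not matched. The 250 bases before the transcription start are printed for 4 members that were lower in all 3 additive diets (the actin Acta1, the fast myosins Myh4 and Myl1 and the fast troponin C gene Tnnc2), and for the slow and cardiac troponin C gene Tnnc1, which was not. Capitals mark matches on either strand to the E-boxes CAGCTG and CACCTG, to CATTCC (the MCAT motif), to TATAAA, to the CArG box and to the MEF2 site. The windows are Acta1 chr8:123894776-123895025 on the minus strand, Myh4 chr11:67237562-67237811 on the plus strand, Myl1 chr1:66945057-66945306 on the minus strand, Tnnc2 chr2:164779735-164779984 on the minus strand, and Tnnc1 chr14:31208062-31208311 on the plus strand.
Acta1: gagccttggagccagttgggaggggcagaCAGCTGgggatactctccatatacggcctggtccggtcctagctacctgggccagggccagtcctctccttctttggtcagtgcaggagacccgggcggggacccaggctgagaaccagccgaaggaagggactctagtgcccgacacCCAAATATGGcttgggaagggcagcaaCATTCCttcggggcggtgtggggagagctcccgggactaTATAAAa
Myh4: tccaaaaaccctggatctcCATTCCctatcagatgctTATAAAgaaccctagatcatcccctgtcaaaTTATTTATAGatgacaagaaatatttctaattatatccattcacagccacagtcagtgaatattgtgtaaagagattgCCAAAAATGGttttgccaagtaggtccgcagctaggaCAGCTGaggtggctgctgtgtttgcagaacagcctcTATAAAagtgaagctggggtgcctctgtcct
Myl1: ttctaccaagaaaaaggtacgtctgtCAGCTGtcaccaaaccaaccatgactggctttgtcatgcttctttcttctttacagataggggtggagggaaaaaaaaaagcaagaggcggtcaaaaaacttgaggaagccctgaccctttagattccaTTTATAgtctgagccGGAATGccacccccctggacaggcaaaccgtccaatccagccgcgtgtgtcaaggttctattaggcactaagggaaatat
Tnnc2: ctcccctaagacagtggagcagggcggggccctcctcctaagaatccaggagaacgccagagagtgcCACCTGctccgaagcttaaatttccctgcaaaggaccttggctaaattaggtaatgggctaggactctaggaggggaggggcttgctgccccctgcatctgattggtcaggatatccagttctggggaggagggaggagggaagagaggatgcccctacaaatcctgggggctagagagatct
Tnnc1: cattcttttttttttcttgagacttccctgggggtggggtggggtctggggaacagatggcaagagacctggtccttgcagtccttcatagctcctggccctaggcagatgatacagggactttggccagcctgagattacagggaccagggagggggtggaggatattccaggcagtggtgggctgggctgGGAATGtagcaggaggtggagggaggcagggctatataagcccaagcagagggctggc
The Acta1 window held a CArG box 73 to 64 bases and a CATTCC 46 to 41 bases before the start, and that of Myh4 held a MEF2 site at 182 to 173 bases that overlaps a TATAAA on the minus strand. The Tnnc2 window held a single match, a CACCTG, and the Tnnc1 window a single CATTCC. Among the 45 windows of the 37 matched members, 18 (40%) held CAGCTG, against 13% of 32851 windows of all genes, and 7 (15.6%) a CArG box, against 1.47%. A MEF2 site was in 6 windows (13.3%, against 2.92% of all), CATTCC in 12 (26.7%, against 12.64%), TATAAA in 8 (17.8%, against 12.37%) and CACCTG in 8 (17.8%, against 17.22%). A match describes the letters of the window, and binding was not measured.

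**Figure D1:**
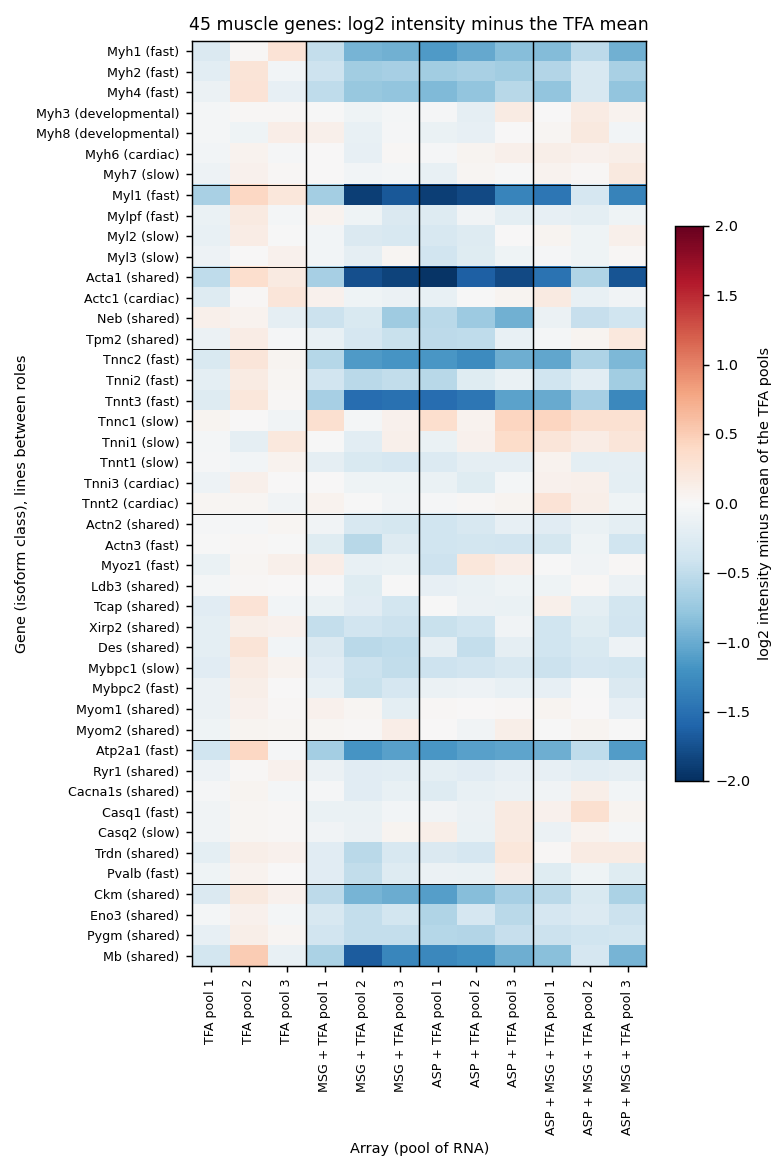
Log2 intensity of each of the 45 genes (rows, grouped by role) in each of the 12 pools (columns), minus the mean of that gene's 3 TFA pools, with blue for lower and red for higher. Most fast isoforms, Acta1, Ckm and Mb are blue across the additive diets, while the slow, cardiac and developmental myosin heavy chains stay near white.

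Among the thick filament genes, the 3 fast myosin heavy chains of adult muscle were lower in every additive diet. Myh1, the type IIx heavy chain, read 5.85, 6.16 and 6.41 in the TFA pools, 5.66, 5.21 and 5.18 in the MSG pools, 5.00, 5.12 and 5.29 in the ASP pools and 5.27, 5.62 and 5.18 with both additives. Myh2, the type IIa chain, read 5.97, 6.44 and 6.12 in the TFA pools, 5.77, 5.47 and 5.51 in the MSG pools, 5.48, 5.53 and 5.49 in the ASP pools and 5.60, 5.85 and 5.52 with both additives. Myh4, the type IIb chain, read 6.22, 6.61 and 6.17 in the TFA pools, 5.82, 5.57 and 5.54 in the MSG pools, 5.45, 5.55 and 5.77 in the ASP pools and 5.54, 6.02 and 5.54 with both additives. For all 3 genes the lowest TFA pool was above the highest pool of every other diet. With ASP they were 2.01-, 1.6- and 1.67-fold lower than with TFA.

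The other heavy chains did not share this pattern. Myh7, the slow and cardiac beta chain, read 5.79, 5.98 and 5.91 in the TFA pools, 5.90, 5.84 and 5.85 in the MSG pools, 5.74, 5.94 and 5.89 in the ASP pools and 5.97, 5.92 and 6.09 with both additives. Myh8, the perinatal chain and the brightest heavy chain here, read 5.90, 5.85 and 6.08 in the TFA pools, 6.04, 5.79 and 5.92 in the MSG pools, 5.81, 5.77 and 5.95 in the ASP pools and 5.98, 6.14 and 5.89 with both additives, and its pools overlapped those of TFA in all 3 diets. Myh6, the cardiac alpha chain, and Myh3, the embryonic chain, differed from TFA by between -0.044 and 0.11 log2. The 5 probe sets shared by Myh6 and Myh7 were left out of both genes, and read between 4.45 and 4.82 in the 12 pools. Myh1, Myh2, Myh4 and Myh8 are near-identical copies over long stretches of sequence, so hybridization of transcripts of one to probe sets of another was not tested.

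Of the 4 myosin light chains, only Myl1 had pools apart from TFA. Myl1, the essential light chain of fast fibres, is described after its values were seen. It was read by 4 probe sets and gave 6.41, 7.47 and 7.28 in the TFA pools, 6.37, 5.17 and 5.36 in the MSG pools, 5.17, 5.25 and 5.74 in the ASP pools and 5.61, 6.72 and 5.72 with both additives. Its difference from TFA was -1.42 for MSG, -1.67 for ASP and -1.04 for both additives, with ASP + MSG pool 2 inside the TFA range. Myl2, the regulatory chain of slow and ventricular muscle, read 6.29, 6.58 and 6.43 in the TFA pools, 6.38, 6.14 and 6.11 in the MSG pools, 6.11, 6.18 and 6.43 in the ASP pools and 6.49, 6.34 and 6.53 with both additives. Myl3, the essential chain of slow and ventricular muscle, read 6.12, 6.24 and 6.32 in the TFA pools, 6.17, 6.04 and 6.27 in the MSG pools, 5.84, 5.98 and 6.13 in the ASP pools and 6.20, 6.13 and 6.25 with both additives, and both slow light chains differed from TFA by between -0.24 and 0.023 log2. Mylpf, the regulatory chain of fast fibres, had differences of -0.1 for MSG, -0.18 for ASP and -0.15 for both additives, with overlapping pools, and thus did not follow Myl1.

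Acta1, skeletal muscle actin, had the most negative difference from TFA of all 45 members in all 3 additive diets. Its levels were 8.01, 8.85 and 8.69 in the TFA pools, 7.85, 6.75 and 6.66 in the MSG pools, 6.55, 6.88 and 6.70 in the ASP pools and 7.03, 7.92 and 6.78 with both additives. The differences were -1.43 for MSG, -1.80 for ASP and -1.27 for both additives, or 2.69-, 3.49- and 2.42-fold lower, and no pool of an additive diet reached the lowest TFA pool. MSG pool 1 and ASP + MSG pool 2 came closest to that pool. Actc1, cardiac actin, whose protein is nearly identical to that of Acta1, differed by -0.04 for MSG, -0.036 for ASP and -0.01 for both additives.

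Nebulin (Neb), the ruler of the thin filament in skeletal muscle, was read by 156 probe sets, the most of any member. It gave 7.94, 7.92 and 7.66 in the TFA pools, 7.41, 7.54 and 7.13 in the MSG pools, 7.30, 7.11 and 6.89 in the ASP pools and 7.72, 7.38 and 7.44 with both additives. All pools with MSG and ASP were below all TFA pools, whereas ASP + MSG pool 1 was not. Neb was highest in TFA pool 1, MSG pool 2, ASP pool 1 and ASP + MSG pool 1. Those pools were the highest of their diets for only 3, 2, 2 and 9 members. The brightest probe set of Neb had a mean of 12.51 and differed by 0.023 with ASP. Tpm2, beta-tropomyosin, is described after its values were seen, and read 6.58, 6.86 and 6.68 in the TFA pools, 6.55, 6.36 and 6.26 in the MSG pools, 6.18, 6.20 and 6.56 in the ASP pools and 6.66, 6.76 and 6.92 with both additives. Its pools with ASP + MSG were the only ones among the thin filament genes with a mean above TFA (0.077).

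**Figure D2:**
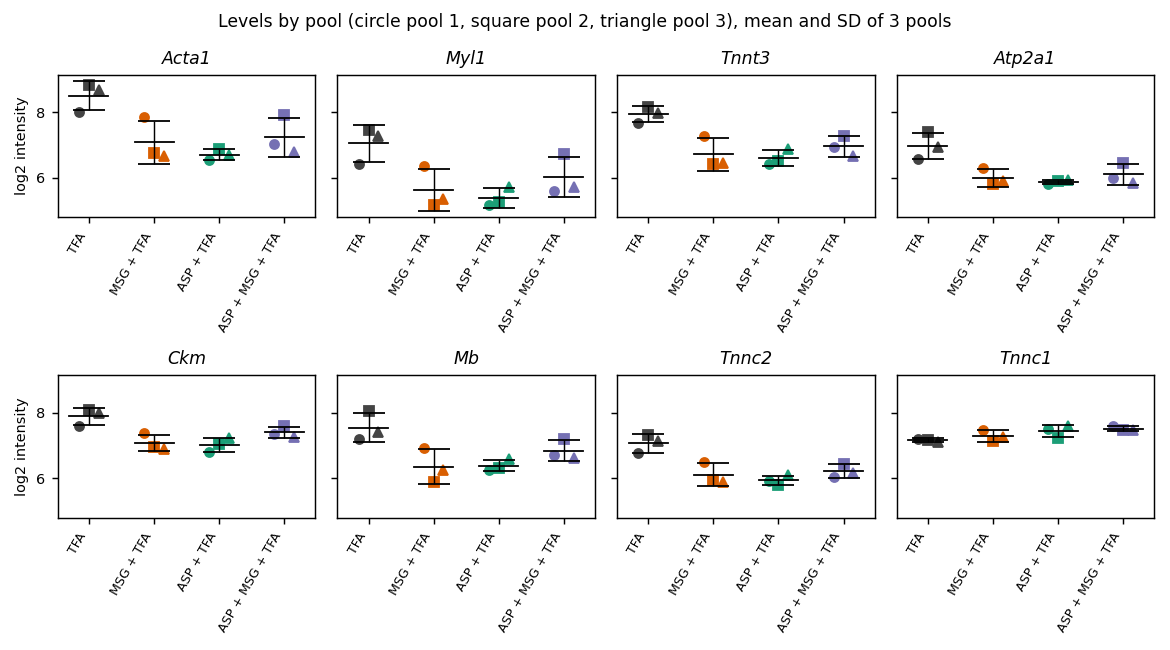
Log2 intensity of 8 members in the 3 pools of each diet (symbols mark the pool number), with the mean as a long bar and the SD as whiskers. For Acta1, Tnnt3, Atp2a1, Ckm and Tnnc2 all 3 TFA pools lie above all 9 other pools, while Tnnc1 lies higher with ASP (7.23 to 7.58) than with TFA (7.10 to 7.21).

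The troponin complex gives 3 fast and slow pairs that serve the same function. Troponin C binds calcium, and its fast gene Tnnc2 read 6.76, 7.32 and 7.13 in the TFA pools, 6.50, 5.94 and 5.89 in the MSG pools, 5.91, 5.80 and 6.09 in the ASP pools and 6.03, 6.45 and 6.16 with both additives. The slow and cardiac gene Tnnc1 read 7.21, 7.17 and 7.10 in the TFA pools, 7.48, 7.12 and 7.25 in the MSG pools, 7.50, 7.23 and 7.58 in the ASP pools and 7.59, 7.46 and 7.46 with both additives. Tnnc2 was thus lower in all 9 pools of additive diets than in any TFA pool (-0.95 for MSG, -1.13 for ASP and -0.85 for both additives), while Tnnc1 was higher than in any TFA pool in all 6 pools that had ASP, with differences of 0.28 and 0.35.

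Troponin I holds the complex in its inhibited state. The fast gene Tnni2 read 6.98, 7.34 and 7.21 in the TFA pools, 6.79, 6.64 and 6.68 in the MSG pools, 6.62, 6.94 and 7.04 in the ASP pools and 6.77, 6.97 and 6.47 with both additives, and was below all TFA pools with MSG and with ASP + MSG but not with ASP. The slow gene Tnni1 read 6.27, 6.12 and 6.52 in the TFA pools, 6.29, 6.10 and 6.39 in the MSG pools, 6.16, 6.39 and 6.67 in the ASP pools and 6.54, 6.44 and 6.54 with both additives. Its ranges overlapped those of TFA except with ASP + MSG, where only its highest TFA pool overlapped.

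Troponin T ties the complex to tropomyosin. The fast gene Tnnt3 read 7.69, 8.18 and 7.97 in the TFA pools, 7.29, 6.42 and 6.45 in the MSG pools, 6.42, 6.51 and 6.87 in the ASP pools and 6.94, 7.28 and 6.66 with both additives, which is -1.23 for MSG, -1.35 for ASP and -0.98 for both additives from TFA. The slow gene Tnnt1 read 6.47, 6.43 and 6.56 in the TFA pools, 6.31, 6.19 and 6.16 in the MSG pools, 6.21, 6.31 and 6.31 in the ASP pools and 6.55, 6.29 and 6.30 with both additives, or -0.27 for MSG, -0.21 for ASP and -0.10 for both additives. Fast troponin T was therefore 2.34-, 2.54- and 1.98-fold lower than in the TFA group, and slow troponin T 1.2-, 1.16- and 1.07-fold lower. The cardiac genes Tnni3 and Tnnt2 differed by between -0.14 and 0.1 log2, with overlapping pools in all 3 diets.

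Differences were smaller among the 11 genes of the Z-disc, the M-band and filament partners, with medians of -0.25 for MSG, -0.13 for ASP and -0.16 for both additives. Myoz1, a calcineurin-binding protein of fast fibres and the brightest of the group, read 6.13, 6.31 and 6.36 in the TFA pools, 6.40, 6.12 and 6.13 in the MSG pools, 5.85, 6.49 and 6.39 in the ASP pools and 6.25, 6.20 and 6.29 with both additives. Desmin (Des), the intermediate filament that links Z-discs and that hepatic stellate cells express too, read 6.26, 6.71 and 6.40 in the TFA pools, 6.17, 5.92 and 5.95 in the MSG pools, 6.28, 5.98 and 6.28 in the ASP pools and 6.05, 6.15 and 6.36 with both additives, apart from TFA only with MSG. Among the alpha-actinins, which anchor actin at the Z-disc, Actn3 of fast fibres differed by -0.35 for MSG, -0.39 for ASP and -0.28 for both additives and Actn2 by -0.25 for MSG, -0.30 for ASP and -0.19 for both additives, with all TFA pools above all others for both.

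Mybpc1, the slow myosin-binding protein C, was lower than its fast counterpart Mybpc2 in its difference from TFA, at -0.38 for MSG, -0.37 for ASP and -0.37 for both additives against -0.31 for MSG, -0.12 for ASP and -0.15 for both additives. Xirp2, an actin-binding repeat protein, differed by -0.43 for MSG, -0.31 for ASP and -0.35 for both additives. The Z-disc proteins Ldb3 and Tcap lay between -0.24 and -0.059, and the myomesins Myom1 and Myom2, which cross-link thick filaments at the M-band, between -0.034 and 0.067. For the myomesins the pools of every diet overlapped those of TFA.

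Of the 7 calcium genes, Atp2a1, the SERCA1 pump of fast fibres, stood apart. Its levels were 6.59, 7.40 and 6.95 in the TFA pools, 6.30, 5.80 and 5.90 in the MSG pools, 5.82, 5.90 and 5.92 in the ASP pools and 6.00, 6.47 and 5.86 with both additives, a difference of -0.98 for MSG, -1.10 for ASP and -0.87 for both additives. Casq1 and Casq2, the fast and the cardiac and slow calsequestrins that store calcium, did not share it. Casq1 read 6.23, 6.34 and 6.33 in the TFA pools, 6.16, 6.17 and 6.25 in the MSG pools, 6.24, 6.19 and 6.48 in the ASP pools and 6.39, 6.63 and 6.36 with both additives. Casq2 read 5.27, 5.37 and 5.36 in the TFA pools, 5.27, 5.21 and 5.39 in the MSG pools, 5.45, 5.21 and 5.52 in the ASP pools and 5.21, 5.40 and 5.29 with both additives. With ASP + MSG all 3 Casq1 pools were above all TFA pools, and every other calsequestrin comparison overlapped.

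Triadin (Trdn), which tethers calsequestrin to the release channel, read 6.82, 7.13 and 7.11 in the TFA pools, 6.79, 6.48 and 6.70 in the MSG pools, 6.72, 6.68 and 7.24 in the ASP pools and 7.04, 7.18 and 7.18 with both additives. It was below TFA in all 3 pools with MSG, while ASP pool 3 and all ASP + MSG pools lay inside or above the TFA range. Ryr1, the release channel, was read by 102 probe sets and differed by -0.19 for MSG, -0.19 for ASP and -0.18 for both additives, with all TFA pools above all others. Cacna1s, its voltage sensor, differed by -0.14 for MSG, -0.17 for ASP and -0.0036 for both additives, and parvalbumin (Pvalb), the calcium buffer of fast fibres, by -0.33 for MSG, -0.043 for ASP and -0.19 for both additives.

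All 4 genes of energy supply and oxygen storage were lower than TFA in each additive diet. Muscle creatine kinase (Ckm) read 7.61, 8.10 and 7.98 in the TFA pools, 7.37, 6.96 and 6.90 in the MSG pools, 6.79, 7.04 and 7.23 in the ASP pools and 7.35, 7.60 and 7.26 with both additives. Beta-enolase (Eno3), the muscle form of the glycolytic enzyme, read 7.50, 7.63 and 7.50 in the TFA pools, 7.23, 7.06 and 7.17 in the MSG pools, 6.94, 7.21 and 7.00 in the ASP pools and 7.21, 7.27 and 7.11 with both additives. Muscle glycogen phosphorylase (Pygm) read 6.27, 6.55 and 6.46 in the TFA pools, 6.05, 5.94 and 5.95 in the MSG pools, 5.85, 5.84 and 5.96 in the ASP pools and 5.99, 6.02 and 6.06 with both additives. For these 3 genes all TFA pools were above all 9 others, and the differences with ASP were -0.87, -0.49 and -0.54 log2. Myoglobin (Mb), the oxygen store of muscle fibres, is added after its values were seen. It read 7.19, 8.06 and 7.40 in the TFA pools, 6.92, 5.89 and 6.25 in the MSG pools, 6.26, 6.32 and 6.58 in the ASP pools and 6.71, 7.21 and 6.62 with both additives, and only ASP + MSG pool 2 reached the TFA range.

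**Figure D3:**
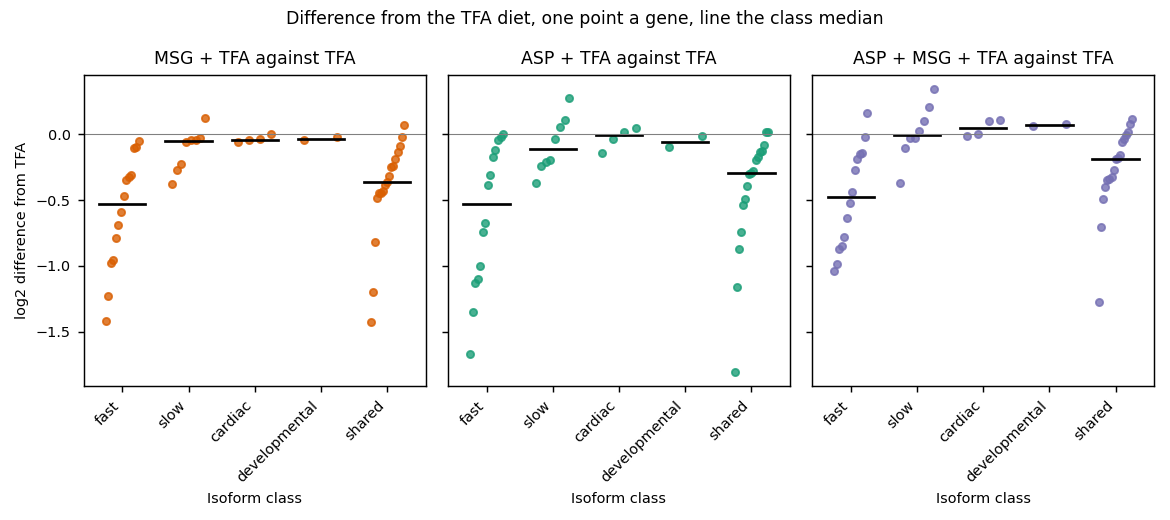
Log2 difference from the TFA mean for each member (points) by isoform class, 1 panel per additive diet, with the class median as a line. Fast isoforms have medians of -0.53, -0.53 and -0.48, while cardiac isoforms lie at -0.041, -0.0083 and 0.051.

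Set side by side by isoform class, the medians were further below TFA for fast isoforms and for genes that fast and slow fibres share. The 14 fast isoforms had a median difference of -0.53 for MSG, -0.53 for ASP and -0.48 for both additives, and 14, 14 and 13 of them were below TFA. The 17 shared genes had medians of -0.36, -0.30 and -0.19. The 8 slow isoforms had medians of -0.052, -0.12 and -0.0026, and the 4 cardiac isoforms -0.041, -0.0083 and 0.051. In 8 of 10 fast and slow pairs the fast isoform had the lower difference in each comparison. Myh1, Myh2 and Myh4 were each paired with the same slow gene, Myh7, so these pairs are not separate. Casq1 with Casq2 was a narrow case for ASP, at -6.1e-05 against 0.056. The exceptions were Mybpc2 with Mybpc1 in all 3, Mylpf with Myl2 for MSG and for ASP, and Casq1 with Casq2 for ASP + MSG. Read by the brightest probe set of each gene, the fast medians were -0.13, 0.0061 and 0.042 and the slow medians -0.038, 0.013 and 0.092, so that the fast medians with ASP and with both additives were no longer below TFA. These comparisons share the TFA pools, so the 3 values of a class are not separate evidence. No test of a class is given, since members were chosen with these contrasts known.

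At an adjusted p under 0.05 (limma, Benjamini-Hochberg over all genes), 10 members were called lower with ASP, namely Myh1, Myh2, Acta1, Neb, Tnnc2, Tnnt3, Atp2a1, Ckm, Eno3 and Pygm, where 0.171% of all genes were called lower. With MSG 0 members were called lower (0.0147% of all genes, and 0.0196% were called in either direction) and with ASP + MSG 0 (0.0392%), although 25 and 18 members were lower at an unadjusted p under 0.05, where 3.05% and 4.38% of all genes were. With ASP that number was 23 (3.47% of all genes), and Tnnc1 was the only member higher at that threshold, with ASP as with ASP + MSG (6.66% and 5.68% of all genes), while 0 members were higher with MSG (2.77%). Since the choice of members used these contrasts, nothing is read from the counts. The 10 calls with ASP stood beside 0.284% of all genes called in either direction. They became 0 without TFA pool 2 (0.0343% of all genes), TFA pool 3 (0.103%) or ASP pool 2 (0.0637%). Without ASP pool 1 there was 1 (0.122%), and without ASP pool 3 or ASP + MSG pool 1 there were 5 (0.181% and 0.176%). Leaving out MSG pool 1 gave 2 calls with MSG (0.0294% of all genes). A one-way model without limma's moderated variance called 0 members with ASP, and 1 gene of all. The limma F test over the 3 contrasts called 0 members (24 at an unadjusted p under 0.05), where 0.113% and 9.16% of all genes passed.

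By the pools themselves, 24 members for MSG, 21 for ASP and 17 for both additives had all 3 pools below all 3 TFA pools, where 6.75%, 4.92% and 7.9% of all genes did. The opposite held for 0 members with MSG (6.45% of all genes) and for 1 with ASP, Tnnc1 (8.48% of all genes). With ASP + MSG it held for 3, Myh6, Tnnc1 and Casq1 (10% of all genes). For 13 members all 3 TFA pools were above all 9 others (1.02% of all genes): Myh1, Myh2, Myh4, Acta1, Tnnc2, Tnnt3, Actn2, Actn3, Atp2a1, Ryr1, Ckm, Eno3 and Pygm.

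By median range, pools of the same diet differed more for these genes than for all genes, though about equally with ASP. Within a diet the same pool tended to be the high one. TFA pool 2 was the highest TFA pool for 32 members and TFA pool 1 the lowest for 37. MSG pool 1 was the highest MSG pool for 36 members, 13 of the 14 fast isoforms among them, and ASP + MSG pool 2 was the highest for 26, with 12 of the 14. ASP pool 3 was the highest ASP pool for 35 members, but also for 41.1% of all genes, where each of the other pools just named was highest for 30.4% to 32.5%. Acta1 in MSG pool 1 (7.85) was 1.14 log2 above the mean of the other MSG pools, the widest such gap in that pool. The median within-diet range of the members was 0.27 with TFA, MSG and ASP and 0.25 with ASP + MSG, against 0.19, 0.19, 0.27 and 0.21 for all genes. The range over the 3 pools of the additive diet exceeded the difference from TFA for 19 members for MSG, 23 for ASP and 25 for both additives. Neither these counts nor that of the lowest pool were taken over all genes.

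Over all 45 members, the mean level was 6.26, 6.53 and 6.44 in the TFA pools, 6.21, 5.94 and 5.98 with MSG, 5.95, 6.00 and 6.14 with ASP, and 6.15, 6.27 and 6.09 with ASP + MSG. ASP + MSG pool 2 was thus the one pool of an additive diet above the lowest TFA pool, with MSG pool 1 next.

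Comparisons among the additive diets were not used to choose the members, although they share the pools of additive diets with the contrasts that were. None called a member (limma, adjusted p under 0.05). ASP + MSG against ASP called 0 members and 0.0245% of all genes, ASP + MSG against MSG 0 members and 0.0049%, and ASP against MSG 0 members and 0 genes. At an unadjusted p under 0.05, ASP + MSG was higher than ASP for Myl3, Neb, Tpm2 and Ckm (4 of 45, with 3.35% of all genes) and higher than MSG for Myl2, Tpm2, Casq1 and Trdn (4 of 45, with 3.65%). ASP was higher than MSG for Pvalb alone (3.79% of all genes), and 0 members were lower at that threshold in any of the 3 comparisons (5.06%, 2.49% and 1.9% of all genes).

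Tpm2 had the smallest p among members against ASP, with a difference of 0.47 (95% interval 0.21 to 0.73, limma adjusted p = 0.287) and all 3 pools above all 3 ASP pools. Neb differed by 0.41 (0.12 to 0.71, adjusted p = 0.411) and Ckm by 0.38 (0.044 to 0.72, adjusted p = 0.549). Against MSG, Trdn differed by 0.48 (0.17 to 0.78) and Tpm2 by 0.39 (0.13 to 0.65), both with an adjusted p of 0.704 (limma). For Acta1 the intervals were wide, -0.16 to 1.22 against ASP and -0.53 to 0.85 against MSG. ASP against MSG gave -0.38 for Acta1 (-1.06 to 0.31) and 0.28 for Pvalb (0.066 to 0.50, adjusted p = 0.854, limma).

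The order of all pools told the additive diets apart for few members. With ASP + MSG all 3 pools were above all ASP pools for Myl3, Neb, Tpm2, Cacna1s, Ckm, Pygm and Mb (7 members, with 4.31% of all genes) and above all MSG pools for Myh3, Myh6, Myh7, Tpm2, Tnni1, Casq1 and Trdn (7 members, with 7.28%). ASP was above MSG for Tcap, Mybpc2 and Pvalb (3 members, with 5.85%). No member was lower in all pools in any of these 3 comparisons (6.63%, 6.01% and 3.21% of all genes). The log2 difference was below 0 for 8 members against ASP (55.1% of all genes), for 3 against MSG (49.6%) and for 24 between ASP and MSG (42.6%). The interaction of ASP and MSG, which contains the TFA pools and is a description here, was positive for 41 members with a median of 0.34 (all genes -0.020), called 0 members (0.0343% of all genes positive) and was positive at an unadjusted p under 0.05 for 23 (3.27% of all genes).

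Single probe sets showed that the gene means average over unequal readings. Of the 998 probe sets of members, 71.1% were below TFA for MSG, 70.7% for ASP and 63.3% for both additives, against 49.2%, 47.4% and 50.2% of all probe sets with 1 symbol. With ASP 149 (14.9%) were over 2-fold lower, against 0.972%. All probe sets of Acta1 (6), Tnnc2 (7), Tnnt3 (11) and Atp2a1 (23) were lower with ASP, as were 141 of 156 for Neb and 27 of 29 for Myh1. Among fast isoforms, 59 of 220 probe sets (26.8%) were over 2-fold lower with ASP, and among slow and cardiac isoforms 6 of 169 (3.55%). With MSG these numbers were 49 and 4, and with ASP + MSG 50 and 2.

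**Figure D4:**
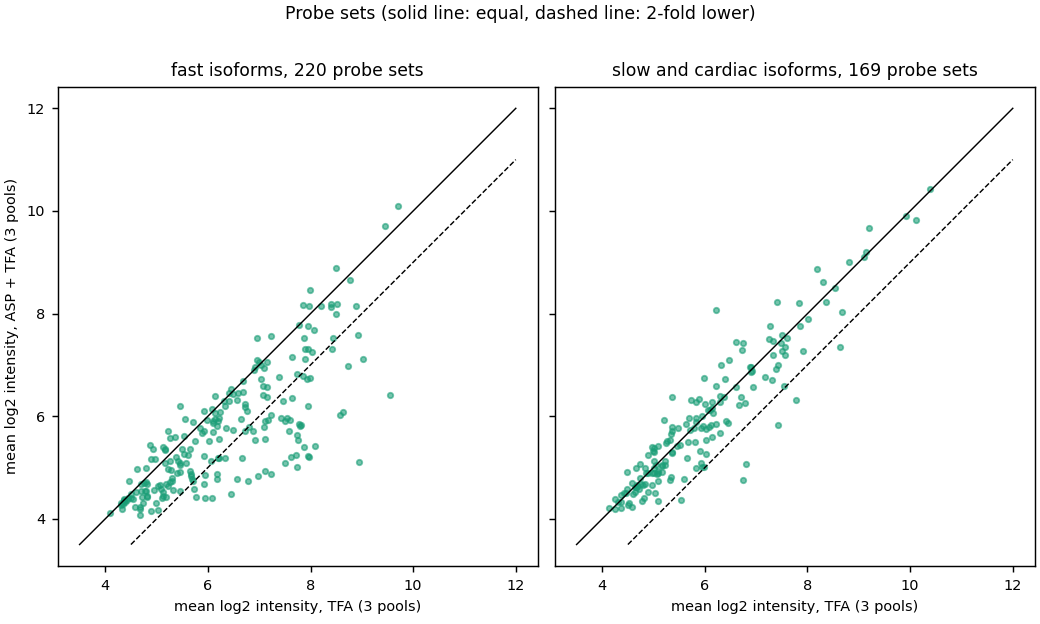
Mean log2 intensity of each probe set with ASP + TFA (vertical axis) against TFA (horizontal axis), 3 pools each, for fast isoforms (left, 220 probe sets) and for slow and cardiac isoforms (right, 169 probe sets). The solid line marks equal levels and the dashed line a 2-fold lower level, below which 59 points lie on the left and 6 on the right.

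The difference depended on which probe set was read. For Tnnt3, the brightest probe set gave 8.94, 8.68 and 8.72 with TFA, 8.70, 8.69 and 8.78 in the MSG pools, 8.63, 8.65 and 8.66 in the ASP pools and 9.19, 9.12 and 8.59 with both additives, which are overlapping ranges. A dimmer probe set of the same gene (rank 4 of 11 by brightness) gave 8.86, 9.68 and 10.11 with TFA, 8.30, 6.83 and 6.30 in the MSG pools, 5.82, 6.80 and 6.65 in the ASP pools and 7.64, 8.52 and 6.59 with both additives, or -3.13 with ASP. For Ckm, the brightest differed by -0.82 and the second brightest by -2.25 with ASP, while that of rank 7 was at 0.28.

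In Acta1 and Mb the bright probe sets carried the difference too. The brightest of Acta1 gave 8.66, 9.38 and 9.53 with TFA, 8.71, 8.14 and 8.09 in the MSG pools, 8.04, 8.36 and 8.82 in the ASP pools and 8.05, 8.78 and 8.19 with both additives. The probe set of rank 5 gave 7.67, 8.35 and 8.37 with TFA, 6.79, 5.51 and 5.35 in the MSG pools, 5.02, 5.50 and 6.14 in the ASP pools and 6.53, 7.49 and 5.44 with both additives. In ASP the brightest reached into the TFA range in 1 pool and that of rank 5 in none. The brightest of Mb gave 8.77, 9.92 and 8.88 with TFA, 8.09, 6.28 and 6.60 in the MSG pools, 6.89, 6.99 and 6.83 in the ASP pools and 7.60, 8.47 and 7.12 with both additives, with a difference of -2.20 with MSG and -2.29 with ASP. Myl1 had 3 probe sets at -1.67, -2.46 and -2.75 with ASP and another, which read between 4.62 and 5.21 in all pools, at 0.20. When each gene was read by its brightest probe set alone, the median member differed from TFA by -0.14 for MSG, 0.018 for ASP and 0.027 for both additives. With ASP 0 members were then called, and 0 of all genes. Arranged by mean level over the 12 arrays, member probe sets had a median difference with ASP of -0.11 under 5 (261 probe sets), -0.20 from 5 to 6 (271), -0.47 from 6 to 7 (207), -0.39 from 7 to 8 (133) and -0.42 from 8 up (126).

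Other genes of striated muscle, in 4 lists that hold 62 measured genes, gave smaller medians, -0.085 for MSG, -0.070 for ASP and -0.052 for both additives. Of these, 0 were called with MSG or ASP + MSG (0.0196% and 0.0392% of all genes). With ASP 3 were called lower (limma), where 0.171% of all genes were. The first was titin (Ttn), the spring between Z-disc and M-band, at -1.23 with an adjusted p of 0.0123 (limma). The others were myotilin (Myot), a Z-disc protein, at -0.76, and the small heat shock protein alpha-B crystallin (Cryab), at -0.43. Titin read 6.44, 7.10 and 6.79 in the TFA pools, 6.09, 5.56 and 5.58 in the MSG pools, 5.48, 5.49 and 5.66 in the ASP pools and 5.75, 6.08 and 5.57 with both additives. As for Acta1, MSG pool 1 and ASP + MSG pool 2 were the highest pools of their diets. Myotilin read 6.32, 6.71 and 6.43 in the TFA pools, 6.03, 5.66 and 5.80 in the MSG pools, 5.64, 5.74 and 5.78 in the ASP pools and 5.88, 6.13 and 5.56 with both additives. All 3 TFA pools were highest for both genes.

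Of all genes outside the members with a current symbol, the 10 whose 12 values were most like the mean of the members, by Pearson's r, were Ttn (0.955), Ankrd23 (0.939), Fabp3 (0.933), Myot (0.933), Cox7a1 (0.929), Cox8b (0.924), Ckmt2 (0.924), H19 (0.889), Rhpn1 (0.881) and Mgp (0.865). Fabp3 is the fatty acid-binding protein of heart and muscle, and Ckmt2 the mitochondrial creatine kinase of muscle. The 5 least like it were Anpep (-0.904), Xylb (-0.902), Smap2 (-0.893), Xpr1 (-0.890) and Rhbdd2 (-0.882). These values describe 12 arrays that share the 4 diets.

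Marker lists of other tissues were read in the same pools. Heart genes averaged 6.16 to 6.33 and smooth muscle genes 6.26 to 6.42 over the 12 pools, stellate cell genes 8.17 to 8.34, adipocyte genes 6.48 to 7.03, erythroid genes 7.64 to 7.87, mesothelial genes 5.88 to 6.20 and Schwann cell genes 6.59 to 6.90. The Schwann cell list (3 genes measured) was highest in TFA pool 2 and lowest in MSG pool 2, as was the mean of the members, and its 3 genes had differences below 0 in all 3 diets (medians -0.20, -0.11 and -0.031). The brightest heart genes were Nkx2-5 and Myl4, and the heart list's median difference from TFA was 0.041 for MSG, 0.040 for ASP and -0.047 for both additives. The 13 measured pancreatic acinar genes averaged 6.13 to 8.79, with the highest values in ASP pool 3 (8.79), ASP + MSG pool 2 (8.25) and ASP + MSG pool 1 (7.93). In ASP pool 3 and ASP + MSG pool 2 the members were also high within their diets, whereas ASP + MSG pool 1 was the highest for only 9 members. MSG pool 1 and TFA pool 2, where members were high too, had acinar means of 6.79, the highest of the MSG pools, and 7.40, between those of the other TFA pools. TFA pool 1, ASP pool 1 and ASP + MSG pool 3 were the lowest of their diets for 37, 28 and 21 members. Their acinar means were also the lowest of those diets (6.17, 6.13 and 6.25). MSG pool 2, the lowest for 27 members, had an acinar mean of 6.73, above the 6.19 of MSG pool 3. These counts of lowest pools were not taken over all genes. Without the 3 acinar-rich pools, 3 members were called lower with ASP in place of 10. Over all genes, 0.166% were then called with ASP in either direction, in place of 0.284%. The part of these tissues in the muscle values was not tested. The muscle transcription factors, among them Mef2a and Mef2d, which liver expresses too, averaged 6.65 to 6.83, with 0 called in any diet.

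**Figure D5:**
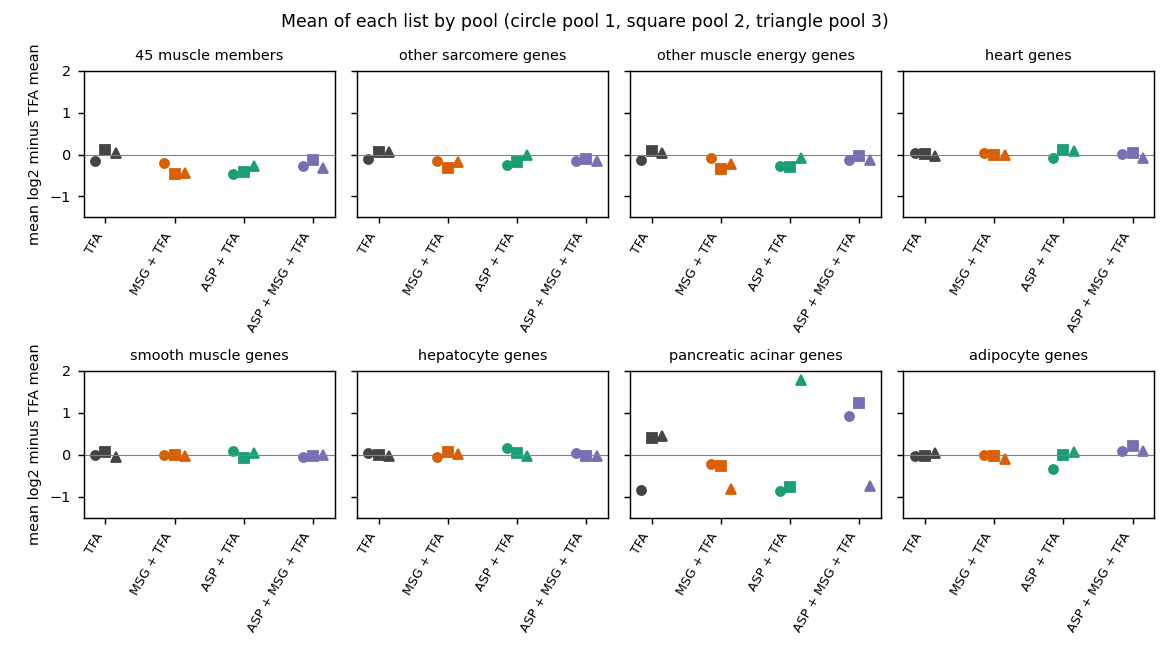
Mean log2 intensity of 8 gene lists in the 12 pools, each minus the mean of its 3 TFA pools (symbols mark the pool number). The mean of the 45 members is below 0 in every pool of an additive diet, heart, smooth muscle and hepatocyte lists stay near 0, and the acinar list spreads furthest, with ASP + TFA pool 3 highest.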

How the data were processed

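Liver RNA of 12 pools (5 mice each) was hybridized to Affymetrix Mouse Gene 1.0 ST arrays, 1 array a pool, with 3 arrays for each of 4 diets. The authors' deposited values are linear intensity per probe set, made with GCRMA background adjustment, summarization and quantile normalization in Partek. The methods also describe later filters for noise and for unique gene identifiers, which the table does not reflect. The genome build is not given in the sources used here. The table holds 241576 probe sets, of which 212138 carry 1 gene symbol, 4672 several and 24766 none. Probe sets with several or none were left out.

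Intensities were log2-transformed with no pseudocount, since the lowest was 14.8, and averaged per gene. One limma model (version 3.58.1, R 4.3.3, R package data.table at 1.17.8) with a mean for each diet was fitted to 20422 genes, with eBayes variance on 8 residual degrees of freedom and Benjamini-Hochberg adjustment within each comparison. The script was tested on simulated data. The number of arrays limits the precision, and p-values measure the spread between pools. Figures were drawn with matplotlib 3.10.9.

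The members and all lists were chosen with earlier results of these data known. Values of every pool are given for members called over all genes, for the 2 brightest of each role and for pairs of troponin, heavy chain and calsequestrin isoforms. From the other lists, called genes are named, and otherwise the 2 brightest. The 10 genes most like the mean of the members and the 5 least like it were taken by Pearson's r. Alternatives were other normalization, probe set summaries, variance models, array weights, a replicate block, fewer arrays and an unadjusted threshold. Promoter sequences and their GRCm38.p6 coordinates come from RefSeq.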

Additional observations from a re-analysis of the deposited data

Results flagged for a closer look

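The MSG difference had opposite signs without and with ASP for 37 members (50.8% of all genes). For 5 of them every MSG pool was below every TFA pool, while every ASP + MSG pool was above every ASP pool. Pools apart in opposite directions were found for 0.945% of all genes. The MSG difference was -0.48 without ASP and 0.41 with ASP for Neb, a gap of 0.90 log2 (limma interaction, adjusted p = 0.149). It was -0.31 and 0.47 for Tpm2, a gap of 0.78 (adjusted p = 0.158), and -0.82 and 0.38 for Ckm, a gap of 1.20 (adjusted p = 0.103). For Pygm it was -0.44 and 0.14, a gap of 0.58 (adjusted p = 0.133), and for Mb -1.20 and 0.46, a gap of 1.66 (adjusted p = 0.149). For Tpm2 the ASP difference also turned, from -0.39 without MSG to 0.39 with MSG, a gap of 0.78 (adjusted p = 0.158), with the pools apart both times, as for 0.759% of all genes. None of these interactions passed the threshold over all genes, and both sides of each share pools with the contrasts known when the members were chosen.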

How the results depend on the processing

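Calls with ASP (10, with 0.284% of all genes) became 0 with brighter probe sets only (0.0413%), which measure 40 of the 45 members. Calls also became 0 with the brightest probe set of a gene (0% of all genes) and with the ordinary one-way model (0.0049%). The median over probe sets gave 4 (0.0881%), and leaving out the 3 acinar-rich pools gave 3 (0.166%). Only the arrays compared gave 5, with no share taken over all genes, and array weights gave 19. Array weights, under which 3.28% of all genes were called with ASP, gave 4 calls with MSG (0.0686% of all genes), 3 with ASP + MSG (0.372%), 1 for ASP + MSG against ASP (1.15%), 12 for the interaction (0.695%) and 14 for any diet (1.43%). An unadjusted p with a 1.4-fold change gave 10 with MSG (0.607% of all genes), 10 with ASP + MSG (1.07%), 15 for the interaction (2.4%) and 13 for any diet (1.81%). Centred arrays and trend with robust variance each gave 1 for any diet (0.108% and 0.122% of all genes).

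With the brightest probe set, the median of the members was -0.14 with MSG, 0.018 with ASP, 0.027 with ASP + MSG, 0.21 for ASP + MSG against MSG and 0.12 for ASP against MSG, that of fast isoforms -0.13, 0.0061 and 0.042 with MSG, ASP and ASP + MSG, that of slow isoforms 0.013 with ASP and that of cardiac isoforms 0.30 with ASP + MSG. It also turned Myh2 to 0.27 and Neb to 0.023 with ASP. Brighter probe sets gave -0.029 for the members, -0.27 for fast and 0.14 for slow isoforms with ASP + MSG. The median over probe sets gave -0.30 for the members with ASP and -0.16 for slow isoforms with MSG. Without the 3 acinar-rich pools, ASP + MSG was left with pool 3 alone. In that single pool fast isoforms were at -0.68 and cardiac isoforms at -0.076. The cause was not tested.

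Leaving out 1 pool gave 0 to 2 calls with MSG (0.0147% to 0.0294% of all genes). With ASP it gave 0 to 11 (0.0343% to 0.304%). The interaction and any diet had 0 to 4 (0.0049% to 0.103% and 0.0196% to 0.137%). Both reached 4 without MSG pool 1 (0.0686% and 0.0832%). In the other comparisons 0 members were called, with at most 0.22% of all genes. Medians of the members ranged from -0.35 to -0.24 with MSG, -0.29 to -0.15 with ASP, -0.21 to -0.086 with ASP + MSG, 0.085 to 0.16 for ASP + MSG against ASP, 0.039 to 0.15 against MSG, -0.073 to 0.057 for ASP against MSG and 0.28 to 0.39 for the interaction. With MSG, ASP and ASP + MSG, fast isoforms ranged from -0.63 to -0.43, -0.59 to -0.46 and -0.59 to -0.37, slow isoforms from -0.11 to -0.010, -0.15 to -0.053 and -0.056 to 0.042, and cardiac isoforms from -0.087 to -0.0052, -0.073 to 0.032 and -0.013 to 0.10.

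With the replicate number as a block, 10 members were called with ASP (0.397% of all genes). In every other comparison 0 were called, with at most 0.0686% of all genes. Same-numbered pools of different diets had residual correlations of -0.342 to 0.354 (median 0.0288), with 4 of 18 over 0.1, so the numbers do not pair the pools.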

Other observations

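Other gene lists gave these median differences from TFA with MSG, ASP and ASP + MSG. Other sarcomere genes (20 measured) were at -0.16, -0.092 and -0.10, and other muscle energy genes (10), led by Pfkm and Cox7a1, at -0.14, -0.16 and -0.044. Muscle membrane and calcium genes (18), led by Jph2 and Srl, were at -0.021, -0.0078 and 0.064. Muscle signalling and chaperone genes (14) were at -0.072, -0.050 and -0.069, and muscle transcription factors (10) at -0.077, -0.044 and 0.010. Smooth muscle genes, led by Mylk and Acta2, were at -0.018, 0.034 and -0.034, and stellate cell genes, led by Dcn and Ecm1, at 0.051, 0.023 and -0.043. Hepatocyte genes were at 0.016, 0.059 and 0.015. Acinar genes, led by Rnase1 and Cpa1, were at -0.41, 0.038 and 0.47. Adipocyte genes, led by Cfd and Fabp4, were at -0.14, -0.084 and 0.024. Erythroid genes, led by Alas2 and Hbb-b1, were at -0.094, -0.061 and 0.017. Mesothelial genes, led by Wt1 and Msln, were at 0.044, 0.097 and 0.16, and Schwann cell genes, led by S100b and Mbp, at -0.20, -0.11 and -0.031.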
